A study of Mus musculus with 69 samples.

Results

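Foxp3 and 5 genes that usually accompany it in regulatory T cells (Ikzf2, Ikzf4, Lrrc32, Gpr83 and Nrp1) were followed in mouse CD4 T cells that had been driven toward the type 1 regulatory (Tr1) state and were labelled as lacking 1 of 15 transcription factors, or Prdm1 and Maf together. The members were found by gene symbol, and all 6 were present among the 23366 genes of each table. Every group began as naive CD4 T cells given IL-27 (25 ng/ml) and an anti-CD3 antibody (1 ug/ml) over 72 h. Per the labels, anti-CD8 at the same concentration was present as well. Polyadenylated RNA from 2000 lysed cells per library was sequenced by an adaptation of SMART-Seq2. Of 69 libraries, 63 were used: 35 labelled as knockouts and 28 controls.

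Foxp3 is the transcription factor that specifies regulatory T (Treg) cells and holds their identity. Ikzf2 (Helios) and Ikzf4 (Eos) are Ikaros family zinc finger factors that work with Foxp3, Eos as a corepressor partner. Lrrc32 encodes GARP, the surface protein that anchors latent TGF-beta on activated Treg cells, Gpr83 encodes a G protein-coupled receptor enriched in Treg cells, and Nrp1 encodes neuropilin-1, a semaphorin and VEGF co-receptor used to mark Treg cells of thymic origin. Tr1 cells, in contrast, are defined by IL-10 secretion without lasting Foxp3 expression.

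Prdm1, Maf and Prdm1/Maf deletion used CD4 Cre(+/-) with Prdm1 f/f, Maf f/f or both, against 3 shared Cre- controls; there were 3 Prdm1, 3 Maf and 2 double knockout libraries. CD4 Cre(+/-) also served for Fosl2 f/f (1 library used against 2 Fosl2 f/f), Hif1a f/f (2 against 2 Hif1a f/f), Nfil3 f/f (2 against 3 Nfil3 f/f) and Stat3 f/f (1 library). CD4 Cre acts in the T cell lineage, from the thymic stage at which CD4 is first expressed. Atf3 f/f was combined with Actin Cre(+/-), which acts in all tissues, in 2 libraries against 2 of Atf3 f/f, and Irf8 f/f with dLck Cre(+/-), a T cell Cre, in 2 libraries. Ahr, Ets1 and Tbx21 knockouts had 2 libraries each against 2 wild type controls, Irf4 had 2 against 3, and Irf9 had 4 against 3. Batf (2 libraries), Irf1 (3), Irf8 and Stat3 shared 4 wild type controls in 3 batches, A, B and C, given by titles and, for C, by exclusion. The Irf9 libraries were BALB/c and all others C57BL/6. Nothing in the labels says that libraries of a group came from separate animals, so p-values measure the spread between libraries, which may be technical.

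Totals of the libraries used ranged from 743445 to 15221850 counts with a median of 2425249, and 10440 to 13890 genes were detected. Replicate 3 of the double knockout (9059 counts), the 4 Cebpb libraries (30602 to 46237 counts) and labelled Fosl2 knockout replicate 1, with 84.8% of its counts on ribosomal Rn45s, were left out. Rn45s also held 43.7% of labelled Irf8 knockout replicate 1 and 34.0% to 40.9% of the Fosl2 libraries used. Levels are CPM, gene counts scaled to the library total, and changes are log2 fold changes of edgeR's quasi-likelihood test, knockout against control, with their standard error (SE) after ±. A change passed at a Benjamini-Hochberg adjusted p, over all genes tested in the comparison, under 0.05. Summed over 7 T cell markers, libraries held 1360 to 4950 CPM, and Cd4 was 301 CPM or more in every control. Il10, the Tr1 cytokine, ran from 2.84 to 104 CPM in controls, with a median of 31.5. It was lowest in the controls of Irf4 (4.48, 2.84 and 4.34 CPM), Ahr (8.62 and 3.20) and Fosl2 (8.97 and 6.44). Irf4 knockouts held 38.1 and 35.6 CPM of Il10, more than their controls. Marker sums reached at most 170 CPM for 8 B cell genes, 31.4 for 10 myeloid and dendritic genes, 25.4 for 4 plasmacytoid dendritic genes, 156 for 6 CD8 T and NK genes and 4.49 for 5 platelet genes. Bulk RNA cannot tell fewer cells of a type from less RNA per cell.

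The targeted transcript itself checks the labels. It fell in the Prdm1 (-2.98 ± 0.18), Batf (-6.28 ± 0.58), Stat3 (-5.21 ± 0.45), Tbx21 (-2.33 ± 0.18) and Irf4 (-1.15 ± 0.09) comparisons, and Maf had 0 counts in every Maf and double knockout library. It did not pass for Irf9 (-0.61 ± 0.20, edgeR adjusted p = 0.0791), Hif1a (-0.32 ± 0.18, 0.442), Irf1 (-0.67 ± 0.23, 0.436), Nfil3 (-1.38 ± 0.75, 1), Fosl2 (-0.04 ± 0.25, 0.996), Irf8 (0.12 ± 0.23, 0.978), Ets1 (0.20 ± 0.07, 0.0517) or Ahr (0.87 ± 0.33, 0.529). Atf3 was higher, not lower, in libraries carrying the Atf3 knockout label (1.94 ± 0.19, edgeR adjusted p = 8.42e-10). Counts per gene cannot show the loss of single exons. The groups whose target did not pass as lower (Ets1, Hif1a, Irf9, Atf3, Ahr, Fosl2, Irf1, Irf8 and Nfil3) are called labelled knockouts in the results, and their directions rest on the labels.

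Of 96 pairs of a member and a comparison of a knockout with its own controls, 91 could be tested and 23 passed, 15 upward and 8 downward. Over all genes the share passing ran from 0.0207% in labelled Nfil3 to 28.0% in Irf4 knockouts, and is given by comparison below. Foxp3 rose in 2 comparisons and fell in 1. Ikzf2 rose in 4, Nrp1 rose in 3, and neither fell in any. Ikzf4 rose in 2 and fell in 1, Lrrc32 rose in 2 and fell in 4, and Gpr83 rose in 2 and fell in 2. No comparison moved all 6 members. Control and knockout libraries did not overlap in any of the 23. They also did not overlap in pairs that did not pass, such as Gpr83 and Nrp1 in labelled Hif1a knockouts. Lack of overlap below therefore describes the values and adds nothing to a call. Its share over all genes was not computed. Of the 23, 11 came from the labelled Ets1, Hif1a, Irf9 and Atf3 knockouts (8 upward and 3 downward), and 12 from comparisons whose target passed as lower (7 upward and 5 downward). In the latter Foxp3 fell in 1, Ikzf2 rose in 2, Ikzf4 rose in 1, Lrrc32 rose in 1 and fell in 2, Gpr83 rose in 1 and fell in 2, and Nrp1 rose in 2.

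Members passed most often in the Irf9 and Ets1 experiments. In labelled Irf9 knockouts 4 of 5 tested members rose, where 4.93% of all genes tested passed. In labelled Ets1 knockouts 4 of 6 rose, where 20.4% of genes passed. In Irf4 knockouts 3 of 6 rose, beside a background of 28.0%. In Tbx21 knockouts 2 of 6 rose (background 6.72%). In labelled Hif1a knockouts 2 of 6 fell (5.55%), and in labelled Atf3 knockouts 1 of 5 fell (8.19%).

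In the Prdm1 knockout 1 member rose and 1 fell, in the Maf knockout 1 rose and 1 fell, and in the double knockout 3 fell, of 6 tested each time. The backgrounds were 12.1% for Prdm1, 9.02% for Maf and 19.0% for the double knockout. The share of members was 2 of 6 or 3 of 6, and these 3 comparisons share their controls. No member passed in the remaining comparisons, in which edgeR called 4.04% of genes for Batf, 1.62% for Stat3, 0.632% for Fosl2, 0.479% for Irf1, 0.381% for Ahr, 0.0452% for Irf8 and 0.0207% for Nfil3. At an unadjusted p under 0.05 were Lrrc32 and Nrp1 in Batf (14.7% of all genes tested), Ikzf2 and Nrp1 in Stat3 (13.7%), Foxp3 and Lrrc32 in Fosl2 (6.77%), Ikzf4 in Irf1 (7.75%) and Irf8 (5.04%), Lrrc32 in Nfil3 (3.66%) and no member in Ahr (6.1%).

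**Figure D1:**
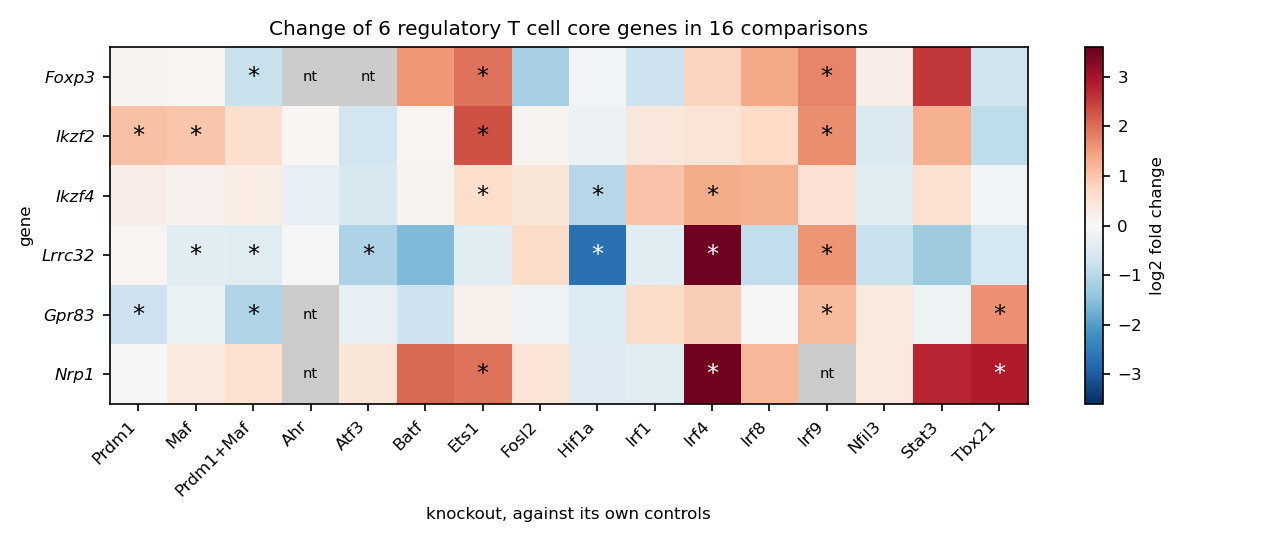
Log2 fold change (color) of the 6 genes (rows) in 16 comparisons of a knockout with its own controls (columns), with a star where the edgeR adjusted p was under 0.05 and nt where the gene was too low to test. The stars number 23, with 4 each in the Irf9 and Ets1 columns, and the Irf4 and Tbx21 columns hold the 3 largest rises that passed.

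In control libraries the members differed widely in level per length of transcript. Median TPM over the 28 controls was 16.0 for Lrrc32, 12.0 for Ikzf4, 4.93 for Gpr83, 2.71 for Foxp3, 2.33 for Ikzf2 and 1.18 for Nrp1. Neighbours in this order overlapped: Lrrc32 exceeded Ikzf4 in 22 of 28 libraries, Ikzf4 exceeded Gpr83 in 17, Gpr83 exceeded Foxp3 in 23, Foxp3 exceeded Ikzf2 in 15 and Ikzf2 exceeded Nrp1 in 18. Lrrc32 and Ikzf4 each exceeded Nrp1 and Ikzf2 in all 28.

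Over the means of all control groups, Foxp3 and Gpr83 varied most. The coefficient of variation of the control group means in CPM was 121% for Foxp3 and 111% for Gpr83, against 28.1% for Ikzf4 and 44.3% for Lrrc32. Over the 10 C57BL/6 control groups alone it was 73.1% for Foxp3, close to 72.2% for Nrp1 and 64.0% for Ikzf2, and 107% for Gpr83. The 3 BALB/c controls held 23.4, 20.9 and 20.0 TPM of Foxp3 and 43.6, 39.2 and 43.6 TPM of Gpr83. Both were above every C57BL/6 control, whose highest values were 10.9 TPM for Foxp3 and 23.9 TPM for Gpr83. Strain and experiment cannot be told apart here, since the Irf9 experiment alone used BALB/c.

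**Figure D2:**
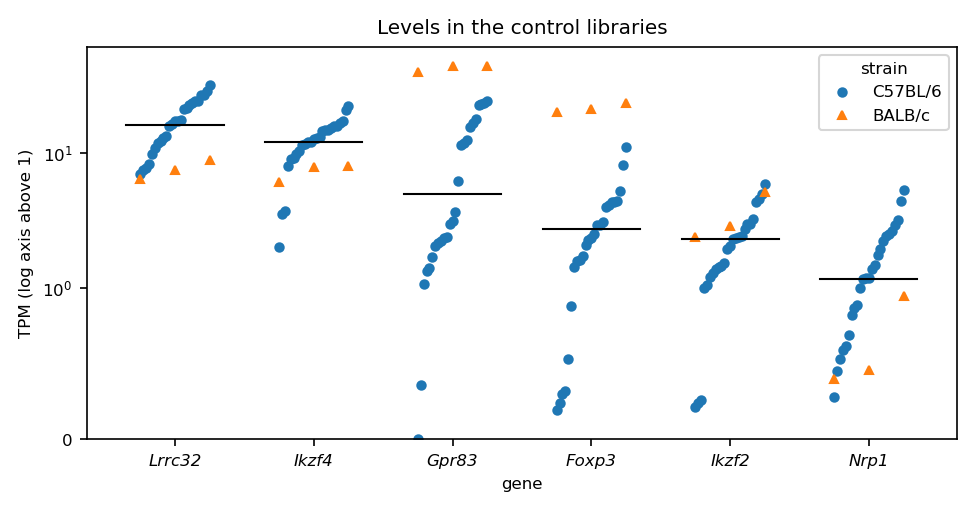
TPM (vertical axis, logarithmic above 1) of each gene in the 28 control libraries, each a point, with the median as a line and the 3 BALB/c libraries as triangles. Medians fall from 16.0 for Lrrc32 to 1.18 for Nrp1, and the triangles stand above all circles for Foxp3 and Gpr83.

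Foxp3 lies on chromosome X at chrX:7579676-7595243 of GRCm38.p6, as RefSeq places it. RefSeq lists 2 transcript starts for it among its promoter windows, each 250 bases before and 50 after a start. Both windows are on the plus strand, at chrX:7579426-7579725 and chrX:7580233-7580532. They are shown because Foxp3 passed in comparisons labelled for an IRF and an ETS family factor, and capitals mark motif matches found on either strand.
Foxp3 upstream start: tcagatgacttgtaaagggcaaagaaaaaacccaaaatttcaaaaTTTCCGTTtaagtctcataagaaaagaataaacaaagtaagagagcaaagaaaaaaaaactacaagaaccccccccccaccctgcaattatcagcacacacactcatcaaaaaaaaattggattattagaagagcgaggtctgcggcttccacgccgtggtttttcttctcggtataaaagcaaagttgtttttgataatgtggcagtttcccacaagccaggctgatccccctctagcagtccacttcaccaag
Foxp3 downstream start: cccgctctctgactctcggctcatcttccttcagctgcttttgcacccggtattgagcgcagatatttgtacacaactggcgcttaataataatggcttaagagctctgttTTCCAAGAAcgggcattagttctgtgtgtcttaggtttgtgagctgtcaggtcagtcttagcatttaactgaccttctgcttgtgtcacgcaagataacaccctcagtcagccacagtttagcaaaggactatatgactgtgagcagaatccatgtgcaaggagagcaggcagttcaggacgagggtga
The motifs searched were an ETS core (CCGGAA), an AP-1 site (TGANTCA), an IRF core (AANNGAAA) and a STAT site (TTCNNNGAA). The upstream window held 1 IRF core match, read on the opposite strand and with its first base at -205 from the start site, and the downstream window held 1 STAT match with its first base at -139. Among 32851 such windows of 300 bases, 14.9% held the ETS core, 7.81% the AP-1 site, 23.9% the IRF core and 8.3% the STAT site. Windows were listed for 3 of the 6 members, and those of Nrp1 (chromosome 8) and Gpr83 (chromosome 9) held no match. A match describes letters only.

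Foxp3 rose most clearly where Irf9 or Ets1 was labelled as deleted. With the Irf9 knockout label, Foxp3 stood at 129, 161, 154 and 138 CPM against 47.0, 41.0 and 40.1 in the controls. The lowest knockout library lay above the highest control, and the rise was 3.37-fold (1.75 ± 0.12, edgeR adjusted p = 8.3e-12). The labelled Ets1 knockouts held it at 24.3 and 19.3 CPM against 7.40 and 4.03, a 3.88-fold rise without overlap (1.96 ± 0.27, adjusted p = 0.000549). The Irf9 transcript was 29.3, 14.8, 19.7 and 31.2 CPM in the labelled knockouts and 37.4, 33.1 and 38.0 in the controls, and the Ets1 transcript 810 and 778 CPM against 722 and 683.

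Of the 16 comparisons, Foxp3 passed as lower in that of Prdm1 and Maf double knockouts. Controls held 11.5, 11.4 and 13.6 CPM, Prdm1 knockouts 10.8, 14.4 and 16.2, and Maf knockouts 13, 13.7 and 11.3, with overlap between all these groups. Double knockouts held 8.05 and 6.68 CPM, below every other library of the experiment. The fall was -0.81 ± 0.18 against controls (edgeR adjusted p = 0.00293), -0.93 ± 0.17 against Prdm1 knockouts (0.00378, where 2.32% of genes and 2 of 6 members passed) and -0.88 ± 0.18 against Maf knockouts (0.00336, where 9.86% of genes and 2 of 6 members passed). All groups but the controls carried CD4 Cre, so an interaction cannot be told apart here from an effect of Cre. This interaction, the double knockout's change beyond the sum of the single changes, was -1.0 ± 0.23 (adjusted p = 0.0344, where 1.10% of genes and 1 of 6 members passed). It no longer passed when any of 7 libraries was left out, with adjusted p up to 0.225 without double knockout replicate 2. Without that library the fall against controls was -0.70 (adjusted p = 0.0563), against Prdm1 knockouts -0.82 (0.11) and against Maf knockouts -0.77 (0.0656).

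Marker sums differed between groups in several experiments. In the Irf9 experiment B cell markers, none of which could be tested, summed to 0.753 to 9.21 CPM in labelled knockouts and 19.1 to 23.3 in controls. In the Ets1 experiment T cell markers summed to 2440 to 2510 CPM in labelled knockouts and 2650 to 2680 in controls, with 1 of 7 rising and 4 falling. Myeloid markers there summed to 4.9 to 7.24 against 15.5 to 18.4 CPM. CD8 T and NK markers summed to 32.9 to 36.4 against 22.5 to 31.6 CPM, with 2 of 3 tested rising and 1 falling. In the Irf4 experiment CD8 T and NK markers summed to 60.1 to 63.8 CPM in knockouts and 17.1 to 27.0 in controls, with 1 of 4 tested, Eomes, rising. T cell markers there summed to 2180 to 2220 against 2730 to 2750 CPM, with 3 of 7 (Cd28, Cd5 and Cd3e) falling, and myeloid markers to 7.88 to 9.96 against 17.6 to 20.2, with Cd68, the only 1 tested, falling. In the Tbx21 experiment B cell markers summed to 28.3 to 43.2 CPM in knockouts and 19.9 to 23.9 in controls, with none of 4 tested passing. Of 7 T cell markers Cd3d (-1.01 ± 0.17) and Cd3e (-0.95 ± 0.20) fell there, as did Klrd1 (-4.19 ± 0.52) among 3 CD8 T and NK markers tested. The part of these cell types in the members' changes was not tested.

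Foxp3 did not pass in the other comparisons in which it was tested. The single Stat3 knockout library held 13.8 CPM, from 19 counts, above its batch B controls at 0.523 and 6.67 CPM, but the change of 2.55 ± 1.23 did not pass (edgeR adjusted p = 0.37). Batf knockouts held 8.68 CPM against 0.936 in batch A, and 5.18 against 0.523 and 6.67 in batch B (1.56 ± 1.06, adjusted p = 0.557). The lone usable labelled Fosl2 knockout held 6.70 CPM against 13.6 and 18.4 (-1.21 ± 0.38, adjusted p = 0.117). Irf4 knockouts held 5.28 and 5.34 CPM against 4.62, 1.07 and 3.39 (0.79 ± 0.44, adjusted p = 0.19). Foxp3 had 0 counts in labelled Irf1 knockout replicate 1, which allows up to 4.04 CPM at 3 counts, and 1 or 2 counts in each Ahr library, where it was not tested. Such limits cover counting error only. It was not tested in the Atf3 experiment either, at 2.52 and 7.03 CPM against 4.30 and 3.61.

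**Figure D3:**
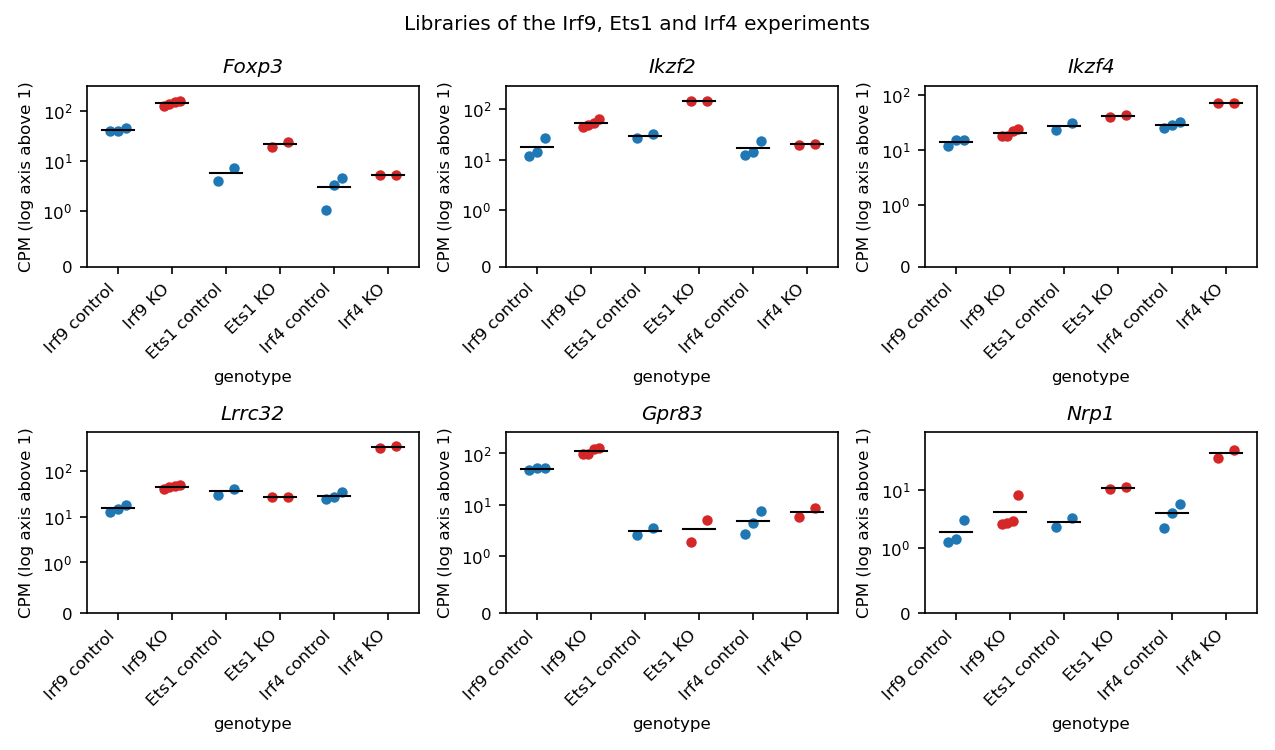
CPM (vertical axis, logarithmic above 1) of the 6 genes in the Irf9, Ets1 and Irf4 experiments, with controls in blue, labelled knockouts in red, 1 point per library and the group mean as a line. Foxp3 separates in the Irf9 and Ets1 experiments, at 129 to 161 against 40.1 to 47.0 CPM in the former, and Lrrc32 and Nrp1 stand highest in the Irf4 knockouts.

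Ikzf2, coding for Helios, rose in the Irf9 and Ets1 experiments, as Foxp3 did, and, at very low levels, in both single knockouts of Prdm1 and Maf. In labelled Ets1 knockouts it reached 142 and 141 CPM against 31.9 and 27.2, a 4.88-fold rise (2.29 ± 0.11, edgeR adjusted p = 3.22e-07). In labelled Irf9 knockouts it stood at 64.0, 53.6, 47.5 and 44.6 CPM against 26.1, 12.0 and 14.4, a 3.17-fold rise (1.67 ± 0.21, adjusted p = 2.09e-06). Groups did not overlap in either experiment.

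In the Prdm1 and Maf experiment Ikzf2 stood at 1.64, 1.45 and 1.76 CPM in controls. It was 3.32, 3.30 and 3.91 CPM in Prdm1 knockouts (1.04 ± 0.30, edgeR adjusted p = 0.0266) and 4.37, 3.10 and 2.31 in Maf knockouts (1.00 ± 0.31, adjusted p = 0.0466). Double knockouts held 2.05 and 3.18 CPM, above every control, and did not pass (0.59 ± 0.35, adjusted p = 0.25). These values rest on 11 to 42 counts per library. By DESeq2 neither passed (adjusted p = 0.0561 and 0.083). With 1 control or knockout library left out, edgeR's adjusted p rose as far as 0.0864 for Prdm1 (without control 2) and 0.204 for Maf (without Maf 1, where the change was 0.76). For Prdm1 the call was also lost without control 1, Prdm1 2 or Prdm1 3. For Maf the call was also lost without control 1, 2 or 3, Prdm1 1 or 2, or Maf 2. Stat3 knockout had 28.7 CPM against 14.0 and 9.33 in its batch (1.28 ± 0.50, adjusted p = 0.256), and Tbx21 knockouts 16.6 and 13.2 against 17.7 and 34.5 (-0.92 ± 0.32, adjusted p = 0.114). The Ikzf2 change in the Tbx21 comparison was -1.06 without knockout 1 and -1.31 without control 1, each fit leaving 1 library in that group.

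Ikzf4, coding for Eos, rose in Irf4 and labelled Ets1 knockouts and fell in labelled Hif1a knockouts. Irf4 knockouts held 71.7 and 70.8 CPM against 28.4, 24.6 and 31.3, a 2.53-fold rise (1.34 ± 0.13, edgeR adjusted p = 3.42e-08). Labelled Ets1 knockouts held 39.0 and 43.1 CPM against 31.2 and 23.0 (0.63 ± 0.16, adjusted p = 0.0165; 0.0592 without Ets1 knockout 2 and 0.106 by DESeq2). Labelled Hif1a knockouts held 13 and 18.5 CPM against 27.8 and 30.1 (-1.02 ± 0.26, adjusted p = 0.0388; 0.0934 without control 1 and 0.228 without control 2, and 0.322 by DESeq2). In each of these the groups did not overlap. Labelled Irf9 knockouts, at 17.8, 22.1, 24.1 and 17.5 CPM against 15.1, 15.2 and 11.5, did not pass (0.53 ± 0.23, adjusted p = 0.219).

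Among the other Ikaros family genes and the corepressor Ctbp1, 4 genes in all, the counts passing were small. In labelled Ets1 knockouts Ikzf3 (Aiolos) rose by 0.70 ± 0.10 and none fell, while in Irf4 knockouts Ikzf3 (-0.70 ± 0.13) and Ikzf1 (-0.25 ± 0.08) fell. Among labelled Irf9 knockouts Ikzf3 rose (0.33 ± 0.07) and Ikzf1 fell (-0.21 ± 0.05). In the Prdm1 knockout Ikzf5 (-0.62 ± 0.15) and Ikzf1 (-0.23 ± 0.05) fell, as they did in the double knockout.

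Lrrc32, coding for GARP, ranged from 3.01 to 356 CPM over the libraries used. In Irf4 knockouts it reached 318 and 356 CPM against 24.6, 27.5 and 34.5 in controls, an 11.4-fold rise (3.51 ± 0.12, edgeR adjusted p = 7.65e-17). In labelled Hif1a knockouts it dropped to 5.38 and 9.26 CPM against 48.9 and 37.0, a 6.4-fold fall (-2.68 ± 0.31, adjusted p = 0.00014). Under the Irf9 label it rose to 48.6, 40.2, 45.2 and 50.8 CPM from 18.1, 15.2 and 13 (1.58 ± 0.19, adjusted p = 9.11e-07). No knockout library overlapped a control in these experiments, as in all 23 calls against own controls.

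Smaller falls of Lrrc32 passed in 3 more comparisons. Labelled Atf3 knockouts held 36.3 and 21.6 CPM against 56.7 and 65.8 (-1.10 ± 0.19, edgeR adjusted p = 5.68e-05). Maf knockouts held 35.7, 40.1 and 38.9 CPM and double knockouts 38.8 and 41.2, against 47.0, 45.9 and 59.9 in their shared controls, changes of -0.40 ± 0.10 (adjusted p = 0.0179) and -0.44 ± 0.11 (0.0104). Prdm1 knockouts, at 49.6, 63.6 and 53.5 CPM, did not pass (0.06 ± 0.10, adjusted p = 0.743), and the double knockout was lower than they were (-0.50 ± 0.11, adjusted p = 0.018). The Maf call was lost without control 3 (adjusted p = 0.0987), Maf 1 (0.0838) or Maf 3 (0.0565), and the double knockout call without control 3 (0.0533) or double knockout 1 (0.105). The call against Prdm1 knockouts was lost without Prdm1 knockout 2 (0.109), double knockout 1 (0.197) or double knockout 2 (0.101).

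In the Hif1a and Atf3 experiments, where Lrrc32 fell, B cell markers rose. In labelled Hif1a knockouts 7 of 8 tested B cell markers rose, and their sum was 108 to 170 CPM against 15.3 to 16.8 in controls. In labelled Atf3 knockouts 6 of 7 tested rose and 1 fell, with a sum of 79.0 to 80.3 CPM against 10.7 to 15.5, and Cd79a, Blk and Pax5 at 0 in the controls. In Atf3 controls the CD8 T and NK marker sum was 107 to 156 CPM against 27.8 to 28.8 in the labelled knockouts. T cell marker sums overlapped, at 3260 to 3410 CPM in labelled Hif1a knockouts and 3220 to 3290 in their controls. The part of the other cell types in these results was not tested.

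In the Batf, Tbx21, labelled Nfil3 and labelled Ets1 comparisons Lrrc32 did not pass. Its fall was larger with a certain library left out. Each such fit left 1 library in a group, so only the change is given. Batf knockouts held 3.01 CPM against 38.6 in batch A, and 16.1 against 28.6 and 20.0 in batch B (-1.60 ± 0.53, edgeR adjusted p = 0.123). Without knockout 2 the Batf change was -3.58. Tbx21 knockouts held 55.4 and 20.4 CPM against 50.9 and 57 (-0.63 ± 0.35, adjusted p = 0.296). Without knockout 1, which lay between the controls, the change was -1.49. Labelled Nfil3 knockouts held 22.1 and 43.1 CPM against 50.3, 51.8 and 62.7 (-0.81 ± 0.25, adjusted p = 1), with -1.39 without knockout 2. The library then left, labelled Nfil3 knockout 1, held 211 CPM of Nfil3 itself, against 3.08 in knockout 2 and 252 to 278 in controls. Labelled Ets1 knockouts held 26.9 and 27.2 CPM of Lrrc32 against 42.0 and 30.9 (-0.40 ± 0.16, adjusted p = 0.105), with -0.57 without control 2.

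**Figure D4:**
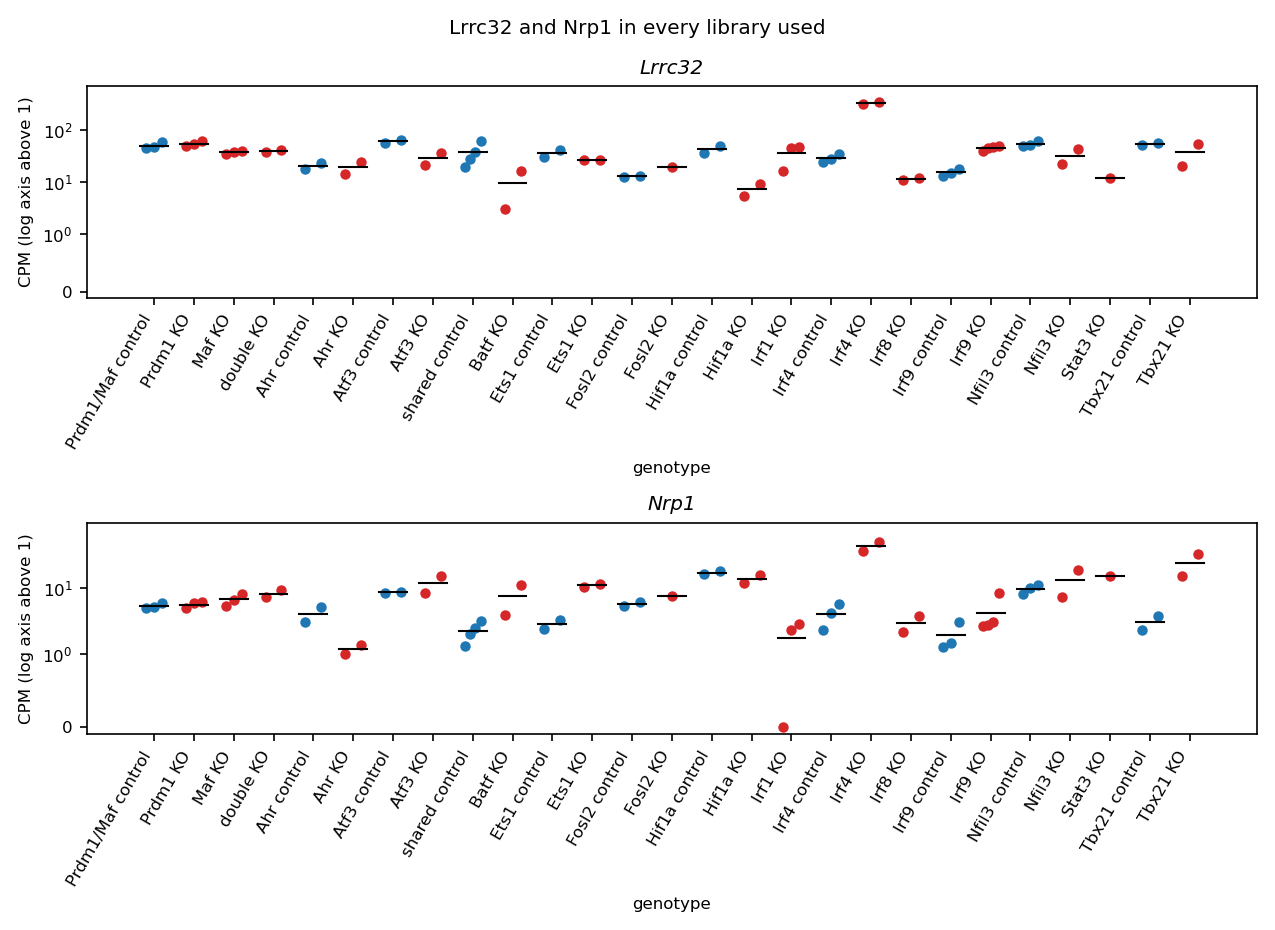
CPM (vertical axis, logarithmic above 1) of Lrrc32 and Nrp1 in each of the 63 libraries, grouped by genotype, with controls in blue, knockouts in red and the group mean as a line. Irf4 knockouts are highest for both genes, at 318 and 356 CPM of Lrrc32, and labelled Hif1a knockouts are lowest of the groups whose Lrrc32 fall passed.

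Of 11 other genes for latent TGF-beta and its release, 6 could be tested in Irf4 knockouts. Beside a background of 28.0%, 5 of these rose and none fell, with a median change of 1.01 against -0.01 over all genes. Those that rose included Furin, the protease that matures TGF-beta (1.5 ± 0.08), the integrin chain Itgav (1.29 ± 0.10), Lrrc33, a GARP relative (1.07 ± 0.17), and Tgfb3 (0.94 ± 0.12). In labelled Hif1a knockouts 1 of 6 fell, Tgfb3 (-4.19 ± 0.28). None of 4 tested passed in labelled Irf9 knockouts. Furin fell in Prdm1 (-1.13 ± 0.10), Maf (-1.5 ± 0.10) and double knockouts (-1.79 ± 0.12), where Itgav also fell (-0.53 ± 0.10 in Prdm1 and -0.42 ± 0.11 in the double knockout).

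Gpr83 rose and fell by experiment without a shared direction. In labelled Irf9 knockouts it stood at 97.7, 99.2, 128 and 123 CPM against 52.2, 46.7 and 51.9 (1.13 ± 0.13, edgeR adjusted p = 2.61e-07). In Tbx21 knockouts it stood at 9.31 and 12.6 CPM against 3.37 and 3.08 (1.64 ± 0.36, adjusted p = 0.0346), with adjusted p of 0.0609 without knockout 2, 0.141 without control 1 and 0.0937 without control 2, and 0.0942 by DESeq2. The groups did not overlap in either.

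Gpr83 was lower in Prdm1 knockouts than in controls, with little spread between libraries. Controls held 35.7, 35.1 and 36.6 CPM and Prdm1 knockouts 22.5, 23.6 and 20.5 (-0.76 ± 0.09, edgeR adjusted p = 8.09e-06). Double knockouts were lower still, at 17.4 and 18.4 CPM (-1.09 ± 0.10, adjusted p = 2.33e-07), and below Maf knockouts (-0.84 ± 0.10, adjusted p = 2.19e-05). Maf knockouts held 28.4, 31.4 and 29.9 CPM, below every control without passing (-0.25 ± 0.09, adjusted p = 0.0843; 0.0483 without Prdm1 knockout 3). Double and Prdm1 knockouts differed by -0.33 ± 0.11 (adjusted p = 0.124; 0.0205 without Prdm1 knockout 3). B cell markers summed to 15.7 to 16.7 CPM in controls, 21.1 to 27.3 in Prdm1, 11.8 to 16.4 in Maf and 24.5 to 26.8 in double knockouts, and CD8 T and NK markers to 69.6 to 77.9, 71.4 to 89.6, 80.0 to 86.1 and 115 to 120 CPM. Of 5 B cell markers tested, 3 rose after Prdm1 loss (median change of the 5, 2.72) and 3 after loss of both factors (2.77). With Maf alone deleted, 1 of the 5 rose (median -0.05). Spib, the only plasmacytoid dendritic marker tested, rose after Prdm1 loss (2.46 ± 0.78) and after loss of both (2.99 ± 0.77). Of 3 CD8 T and NK markers tested, 1 rose in each single knockout and 2 rose after loss of both. The part of these cell types in the Gpr83 results was not tested.

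**Figure D5:**
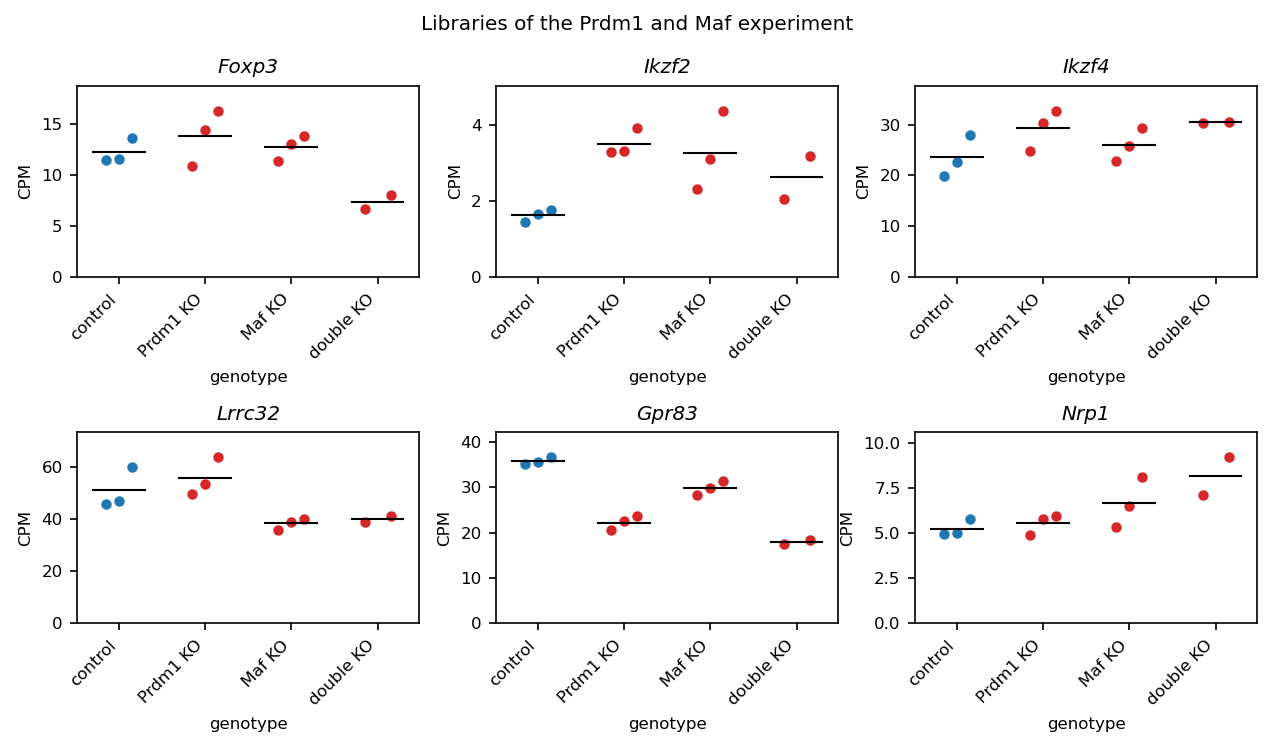
CPM (vertical axis, from 0) of the 6 genes in the Prdm1 and Maf experiment, with 1 point per library and the group mean as a line. Foxp3 is lowest in the double knockouts, at 8.05 and 6.68 CPM, and Gpr83 is lower in Prdm1 knockouts, at 20.5 to 23.6 CPM, and double knockouts, at 17.4 and 18.4, than in controls, at 35.1 to 36.6.

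Nrp1 rose in Irf4, Tbx21 and labelled Ets1 knockouts. Irf4 knockouts held 48.8 and 36.3 CPM against 2.24, 5.68 and 4.10, an 11.2-fold rise (3.48 ± 0.26, edgeR adjusted p = 1.62e-10). Tbx21 knockouts held 32.4 and 15.3 CPM against 2.31 and 3.70, a 7.22-fold rise (2.85 ± 0.43, adjusted p = 0.0102; 2.25 without knockout 1). Labelled Ets1 knockouts held 11.3 and 10.3 CPM against 3.28 and 2.33 (1.97 ± 0.30, adjusted p = 0.00108). No groups overlapped, although the control values rest on 3 to 18 counts.

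Nrp1 was also high in the lone Stat3 knockout, at 15.1 CPM against 2.42 and 2.00 in batch B (2.73 ± 0.98, edgeR adjusted p = 0.202), and in Batf knockouts, at 3.87 against 1.3 CPM in batch A and 11 against 2.42 and 2.00 in batch B (2.06 ± 0.81, adjusted p = 0.216). Neither passed. In the Irf9 experiment Nrp1 had 2 to 11 counts per library and was not tested.

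Named partners of neuropilin-1 moved in both directions where Nrp1 rose. In Irf4 knockouts the ligand Vegfa (0.53 ± 0.12) and the plexin Plxnd1 (0.40 ± 0.11) rose and the semaphorin Sema4a fell (-1.49 ± 0.14). In Tbx21 knockouts the plexin Plxna1 rose (1.03 ± 0.24) and Sema4a fell (-1.21 ± 0.19). Among labelled Ets1 knockouts Plxna3 rose (1.58 ± 0.22), and Plxnd1 (-1.99 ± 0.21), Plxna1 (-1.05 ± 0.25) and Sema4a (-0.96 ± 0.14) fell.

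The wider Treg signature, 23 genes outside the 6, moved differently by factor. Of all genes tested, 28.0% passed in Irf4, 20.4% in labelled Ets1 and 4.93% in labelled Irf9 knockouts. In Irf4 knockouts 15 of 20 tested rose and 2 fell (median change 1.05 against -0.01 over all genes), led by the enkephalin precursor Penk (5.96 ± 0.13), Cd83 (3.05 ± 0.20), the chemokine receptor Ccr8 (2.96 ± 0.24) and Ecm1 (2.92 ± 0.10). In labelled Ets1 knockouts 11 of 21 rose and 4 fell (median 0.37 against 0.00), with rises of the integrin Itgae (3.14 ± 0.45), Ccr8 (2.06 ± 0.26) and Penk (1.47 ± 0.19) and a fall of Ecm1 (-1.48 ± 0.11). In labelled Irf9 knockouts 8 of 14 rose and none fell (median 0.43 against 0.00), including the inhibitory receptor Ctla4 (1.04 ± 0.15), Ecm1 (0.83 ± 0.08), Capg (0.52 ± 0.08) and the IL-2 receptor chain Il2ra (0.51 ± 0.04).

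More signature genes fell than rose after loss of Prdm1, Maf or both and in labelled Hif1a knockouts, as more of all genes did: 805 fell and 562 rose in Prdm1, 576 and 445 in Maf, 1222 and 928 in double and 414 and 135 in labelled Hif1a knockouts. In double knockouts 11 of 21 fell and 4 rose (median -0.42 against 0.01), with a fall of the ectonucleotidase Entpd1 (-2.29 ± 0.14) and rises of Penk (1.81 ± 0.13), Cd83 (1.58 ± 0.26) and the ectonucleotidase Nt5e (1.25 ± 0.11). In Prdm1 knockouts 9 fell and 3 rose, and in Maf knockouts 5 fell and 3 rose. In labelled Hif1a knockouts 7 of 19 fell and 2 rose, with falls of Entpd1 (-2.14 ± 0.50), Ctla4 (-1.28 ± 0.23) and Tnfrsf9 (-1.11 ± 0.23) and a rise of Cd83 (1.64 ± 0.37), a gene also used by B cells. In labelled Atf3 knockouts 6 of 16 fell and 3 rose, and in Tbx21 knockouts 4 of 20 fell and 3 rose.

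Genes that Treg cells hold low gave a mixed picture. In Irf4 knockouts 7 of 11 fell and 3 rose, with falls of Il2 (-5.77 ± 0.51), Cd40lg (-2.60 ± 0.26), Tcf7 (-1.60 ± 0.10) and Lef1 (-1.33 ± 0.10). In labelled Irf9 knockouts 4 of 11 fell and 1 rose, including falls of Cd40lg (-1.04 ± 0.26) and Tcf7 (-0.43 ± 0.07). In labelled Ets1 knockouts 3 fell and 4 rose, with a fall of Il2 (-3.98 ± 0.64) and a rise of Id2 (1.47 ± 0.10). In double knockouts 4 fell and 2 rose, Id2 (-1.65 ± 0.08) and Themis (-1.13 ± 0.10) among the falls. Median changes of the list were -0.57 in Irf4, -0.08 in labelled Irf9, 0.03 in labelled Ets1 and -0.02 in double knockouts. Of all genes tested, 28.0%, 4.93%, 20.4% and 19.0% passed in these comparisons.

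Of 24 genes known to induce or hold Foxp3, the IL-2 receptor chain Il2ra, which the signature also holds, passed in each comparison with controls in which Foxp3 passed. It rose in labelled Ets1 (1.3 ± 0.06) and Irf9 (0.51 ± 0.04) knockouts and fell in double knockouts (-0.68 ± 0.06). In Irf4 knockouts, where Foxp3 did not pass, Il2ra also rose (1.08 ± 0.08), as did Il2rb (1.18 ± 0.09), and it fell in Prdm1 (-0.40 ± 0.05), labelled Hif1a (-0.99 ± 0.20) and labelled Atf3 knockouts (-0.74 ± 0.10), where Foxp3 did not pass or was not tested. The list as a whole split: 5 rose and 4 fell in labelled Ets1 knockouts, and 2 rose and 1 fell in labelled Irf9 knockouts. In double knockouts 2 rose and 6 fell, and in Irf4 knockouts 9 rose and 2 fell. Of all genes tested, 20.4%, 4.93%, 19.0% and 28.0% passed in these comparisons, in that order. Gata3, a lineage factor of Th2 cells that also binds Foxp3 regulatory DNA, rose in Irf4 (2.82 ± 0.17), Tbx21 (3.61 ± 0.74) and labelled Ets1 knockouts (1.64 ± 0.19), while Nr4a3 (-2.09 ± 0.24) and Rel (-1.59 ± 0.21) fell in the last.

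Likeness to each member was computed across the 63 libraries. Each library was taken as its difference from the mean of its experiment or batch on the log2(CPM + 1) scale. Among 9611 genes with a mean of at least 5 CPM, Lrrc32 was most like Rhoq (Pearson r = 0.889), Cnp (0.793) and Il4ra (0.771), and Nrp1 was most like Socs1 (0.726), Penk (0.697) and Phlda1 (0.687). Ikzf4 was most like Plod2 (0.669), Mxi1 (0.651) and Lama5 (0.635), and Gpr83 was most like Ccr4 (0.602), Zfp768 (0.581) and Armcx4 (0.556). Foxp3 was most like Dusp4 (0.586), Phlda1 (0.548) and Heatr3 (0.519), and Ikzf2 was most like Tax1bp1 (0.56), Gnb4 (0.535) and Lgals1 (0.522). Between members the values ran from -0.0244 for Foxp3 and Gpr83 to 0.51 for Ikzf4 and Lrrc32, with 0.459 for Foxp3 and Ikzf2. Most alike genes were picked from all 9611 and members were not, so the top values cannot be weighed against those between members. Whether the members moved together more than other genes did was not tested. All these values are descriptions: libraries of an experiment share controls.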

How the data were processed

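Expected counts and TPM per gene were used as the authors deposited them; per the submitters' processing notes, reads were processed with TopHat and RSEM on mm9, with versions not given in the sources used here. FPKM was not used here. Of nonzero expected counts, 23.0% were not whole; after rounding, the quasi-likelihood F-test of edgeR 4.0.16 (R 4.3.3) was applied (genes kept by filterByExpr, TMM scaling, Benjamini-Hochberg over all genes tested, threshold 0.05). CPM divided counts by the library total.

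Each of 11 experiments was fitted alone. The Batf, Irf1, Irf8 and Stat3 groups, with common controls, count as 1 experiment, with batch as a term, and the Prdm1 and Maf groups as another. Fosl2 kept 1 knockout library, assumed to vary like its controls. Code was tested on simulated data.

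Members and gene lists were chosen with earlier results of these data known. Besides the 6 members, the text names targets, up to 4 genes per list past the threshold with the largest change in a comparison where a member passed, and the 3 genes most like each member; not all are named, and Il10 and Cd4 were added as identity checks. RSEM can split reads between similar sequences. Counts over the list of neuropilin partners are not reported here. Sequences are RefSeq's (GRCm38.p6); the counts' build is mm9, so no coordinate was matched between them. The alternatives tried were DESeq2 1.42.0, its size factors in edgeR, no low-count filter, no Rn45s, a replicate block, no batch term, own batches only, 1 fit over all libraries, left-out libraries put back, similar libraries summed, and each library left out.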

Additional observations from a re-analysis of the deposited data

Results flagged for a closer look

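Nrp1 in labelled Irf9 knockout replicate 3 stood at 8.29 CPM, far from the other 3 libraries of its group, at 2.63 to 2.96 CPM. This value rests on 11 counts. It was the only 1 of 12 pairs of a member and a group of 4 libraries to stand apart in this way, and chance gives about 1 in 20.

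Foxp3 changed by -1.0 (log2) in Prdm1 and Maf double knockouts beyond the sum of the changes in the single knockouts (edgeR adjusted p = 0.0344). Only the controls lacked CD4 Cre, so the Maf change with Prdm1 present also held any effect of Cre. The Maf change without Prdm1 did not, so an interaction and an effect of Cre cannot be told apart. Both double knockout libraries were below all 9 other libraries of the experiment. The call depends on single libraries.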

How the results depend on the processing

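Of 28 calls on single members, counting the 3 contrasts among Prdm1 and Maf groups, 334 of 398 recomputed values kept the call, 64 lost it and 0 reversed, with 13 calls kept under each alternative run. These 13 were Gpr83 in the double knockout; Foxp3, Ikzf2 and Nrp1 in Ets1; Lrrc32 in Hif1a; Ikzf4, Lrrc32 and Nrp1 in Irf4; Foxp3, Ikzf2, Lrrc32 and Gpr83 in Irf9; and Nrp1 in Tbx21. Mean CPM and mean TPM differed in the direction of the call for all 23 calls against own controls. Both rescale the counts that were tested, so this agreement is no separate check.

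Numbers below count members called. Shares over all genes under each alternative are not given here, so these counts cannot be read as particular to the members. With DESeq2 they were 1 each in Prdm1, Maf, Hif1a and Tbx21. With no low-count filter 1 was called in Batf. With double knockout replicate 3 put back they were 0 in Prdm1, Maf, both contrasts of the double knockout with a single knockout and the interaction, and 1 in the double knockout. With 1 fit over all libraries they were 1 in Prdm1 and the double knockout, 0 in Maf, both such contrasts, the interaction and Atf3, 3 each in Batf and Stat3, and 1 each in Irf1 and Irf8. The cause was not tested.

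Leaving out 1 library at a time gave 1 to 3 in Prdm1, 0 to 3 in Maf, 2 to 3 in the double knockout, 0 to 3 against Prdm1 knockouts, 1 to 2 against Maf knockouts, 0 to 1 in the interaction, Batf, Nfil3 and Stat3, 1 to 2 in Hif1a, 3 to 5 in Irf4 and Ets1, and 1 to 4 in Tbx21. Groups of 2 libraries kept 1 in some of these fits, and their counts then rest on a single library. Without Irf4 control 2, Ikzf2 (0.67) and Gpr83 (1.21) passed. Without Ets1 control 2, which left only control 1, the Lrrc32 change was -0.57. In Stat3, with its lone knockout library, the Foxp3 change was 5.03 without shared control 3. The batch B control then left held 0.523 CPM of Foxp3, from 1.08 counts.

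The labels name no pairing. Correlations of same-numbered deviations ran from -0.35 to 0.297, the highest in the Hif1a experiment. Differently numbered libraries were not compared, so these values cannot settle whether replicate numbers pair libraries. With the replicate block 1 member was called in Maf and 0 in the interaction, and other counts stayed within 1.5 times. For 4 of 49 library pairs within a group (Irf4 controls and both Irf9 groups) chi-square divided by its degrees of freedom was below 1.3; summing them kept the Irf4 and Irf9 calls. Low counts of Foxp3, Gpr83 and Nrp1 limit the Ahr, Batf, Irf1, Irf8 and Stat3 comparisons.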
